A study of Mus musculus with 4 samples.

Results

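The immediate early genes Fos, Fosb, Junb, Egr1, Egr2, Arc, Npas4, Nr4a1, Ier2 and Dusp1 (10 in all) were followed in RNA of the mouse cerebellum. Their probes were all non-control probes whose RefSeq accession belongs to one of these genes, which gave 12 of the 56605 probes on the array and 10 of the 22911 genes that could be named. The study profiled mice that lack Derlin-2 in the central nervous system; Derlin-2, encoded by Derl2, is an endoplasmic reticulum membrane protein that takes part in the disposal of misfolded proteins. The 2 control samples came from Derl2flox/flox mice. The 2 knockout (KO) samples came from mice bred by crossing this line to one in which the nestin promoter, active in the precursors of neurons and glia, drives Cre recombinase. All mice were C57BL/6, kept free of specific pathogens, and were killed at postnatal day 28 by cervical dislocation. The labels list no Cre in the controls, so an effect of Cre itself and of the loss of Derl2 cannot be told apart. They give no time of day, no time from death to lysis and no record of behaviour before death.

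Immediate early genes are switched on within minutes of neuronal firing, growth factors or stress, by transcription factors that are already present in the cell. Calcium entry and kinase signalling act on CREB, which binds the cAMP response element (CRE), and on serum response factor, which binds the CArG box. The transcripts are short-lived, so their level in a tissue reflects the recent past before the RNA was fixed, and in the cerebellum granule cells are by far the most numerous neurons. Most of the proteins are transcription factors that drive a second wave of genes, while others act at the synapse or shut the signal down.

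The bases just before the start sites are shown because CREB and serum response factor act on elements in promoters and because the 5 genes chosen span the widest and the narrowest differences between samples. Such windows were taken from a RefSeq table (GRCm38.p6) for 7 of the 10 genes. For Arc, Egr1 and Ier2 no window was searched, and the search of members skipped a chromosome that the shares of all windows include. Each run gives the 250 bases before the start of transcription, 5′ to 3′ on the strand of the gene. Capitals mark TGACG or its complement CGTCA (the CRE core), TGACGTCA (a full CRE, which contains both) and TATAAA.
Npas4, chr19:4989972-4990221 (- strand): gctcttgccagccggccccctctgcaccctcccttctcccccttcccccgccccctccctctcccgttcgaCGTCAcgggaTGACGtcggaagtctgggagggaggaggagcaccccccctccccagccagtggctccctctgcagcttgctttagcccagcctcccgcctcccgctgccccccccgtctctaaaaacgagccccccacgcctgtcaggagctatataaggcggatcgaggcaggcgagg
Fos, chr12:85473640-85473889 (+ strand): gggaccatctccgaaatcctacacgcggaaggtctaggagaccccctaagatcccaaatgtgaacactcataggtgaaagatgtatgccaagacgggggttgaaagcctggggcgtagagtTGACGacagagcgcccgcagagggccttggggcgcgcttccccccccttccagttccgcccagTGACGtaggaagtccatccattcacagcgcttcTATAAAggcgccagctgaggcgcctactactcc
Nr4a1, chr15:101266596-101266845 (+ strand): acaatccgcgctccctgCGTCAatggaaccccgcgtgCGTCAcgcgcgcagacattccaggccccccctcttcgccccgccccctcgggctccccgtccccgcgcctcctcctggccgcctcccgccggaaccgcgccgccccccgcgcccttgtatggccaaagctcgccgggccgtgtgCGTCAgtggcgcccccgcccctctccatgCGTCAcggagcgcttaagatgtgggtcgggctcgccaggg
Dusp1, chr17:26508473-26508722 (- strand): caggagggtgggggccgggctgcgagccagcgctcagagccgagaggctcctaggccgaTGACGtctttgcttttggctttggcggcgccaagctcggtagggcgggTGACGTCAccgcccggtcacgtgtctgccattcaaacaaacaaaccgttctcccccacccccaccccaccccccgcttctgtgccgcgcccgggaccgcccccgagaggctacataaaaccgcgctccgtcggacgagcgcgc
Junb, chr8:84978749-84978998 (- strand): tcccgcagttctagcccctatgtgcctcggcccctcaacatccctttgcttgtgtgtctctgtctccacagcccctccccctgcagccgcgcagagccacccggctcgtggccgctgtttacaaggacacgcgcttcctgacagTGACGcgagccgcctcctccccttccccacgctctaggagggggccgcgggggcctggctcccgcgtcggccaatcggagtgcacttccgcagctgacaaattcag
Each of the 7 genes had at least 1 CRE core in a window, on either strand, against 17.8% of 32851 windows of the same length in the table; Egr2 has 5 start sites, and its first 2 windows hold none. Among the 7 genes, a full CRE was found in Dusp1 alone, starting 143 bases before the start site, against 1.55% of all windows. In Fos the cores started 129 and 66 bases before the start and TATAAA 33 bases before it (7.59% of all windows hold TATAAA as written). Nr4a1 had 4 cores, Npas4 2 cores and Junb 1. The CArG box, searched by its letters on both strands, was found in Egr2 alone of the 7 genes (1.47% of all windows). Arc, Egr1 and Ier2 were not searched, nor were bases beyond 250 before a start. A motif not found here can therefore still belong to one of the 10 genes. These matches are descriptions of letters in a window.

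Each array held 59305 non-control spots; between 66.4% and 69.4% of them were well above background and 0 were saturated. The 4 arrays shared a slide with each group side by side, so position and group cannot be told apart. Values are log2 of the processed signal minus the 75th percentile of the array, so that 0 is the signal of a probe at that percentile and 1 unit is a doubling. Derl2 itself, on its brighter probe, had a log2 signal of 2.13 and 2.20 for the control samples and 0.81 and 0.70 for the KO samples, 37.6% of control. Of the markers of the labelled tissue, 10 of 10 for granule cells and 10 of 10 for Purkinje cells were well above background on all arrays. The same held for 16059 of the 16524 genes tested, so these counts do not identify the tissue. Markers of the choroid plexus, the secretory epithelium of the ventricles, were far higher on the array of control replicate 2: the linear signals of 11 of 11 markers summed to 244 there and to between 24.9 and 33.7 on the other arrays, and all were well above background on every array. Red blood cell markers, 7 of 8 of them measured, summed to 612 on that array and to between 422 and 437 on the others.

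The comparison of KO with control asked whether the immediate early genes differ with the loss of Derlin-2. All 10 had a probe well above background on all 4 arrays; the second probes of Fosb and Junb did not pass the filter, with the Fosb probe above background on 0 arrays and the Junb probe on 1. No member passed the threshold of an adjusted p under 0.05 (limma, Benjamini-Hochberg over 37516 probes), against 0.0% of the 16524 genes tested. Derl2 itself missed it as well, with a limma adjusted p of 0.273 on both of its probes. Missing this threshold therefore does not show that a gene is unchanged. At an unadjusted p under 0.05 there was 1 member of 10, Arc, which was lower in KO, against 8.81% of genes in either direction, 3.16% higher and 5.65% lower. Arc was also the only member whose KO arrays both lay on one side of both control arrays, against 45.9% of genes (13.8% higher and 32.1% lower). A mean above control was seen for 6 members and a mean below it for 4, against 63.9% of all genes below it. The median difference was 0.12 on the log2 scale, against −0.064 over all genes. Without control replicate 1 that median was −0.041 and without KO replicate 1 it was −0.048, so its sign rests on single samples. The labels do not say that each sample is a separate mouse, so p-values measure only the spread between these samples, which may be technical.

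**Figure D1:**
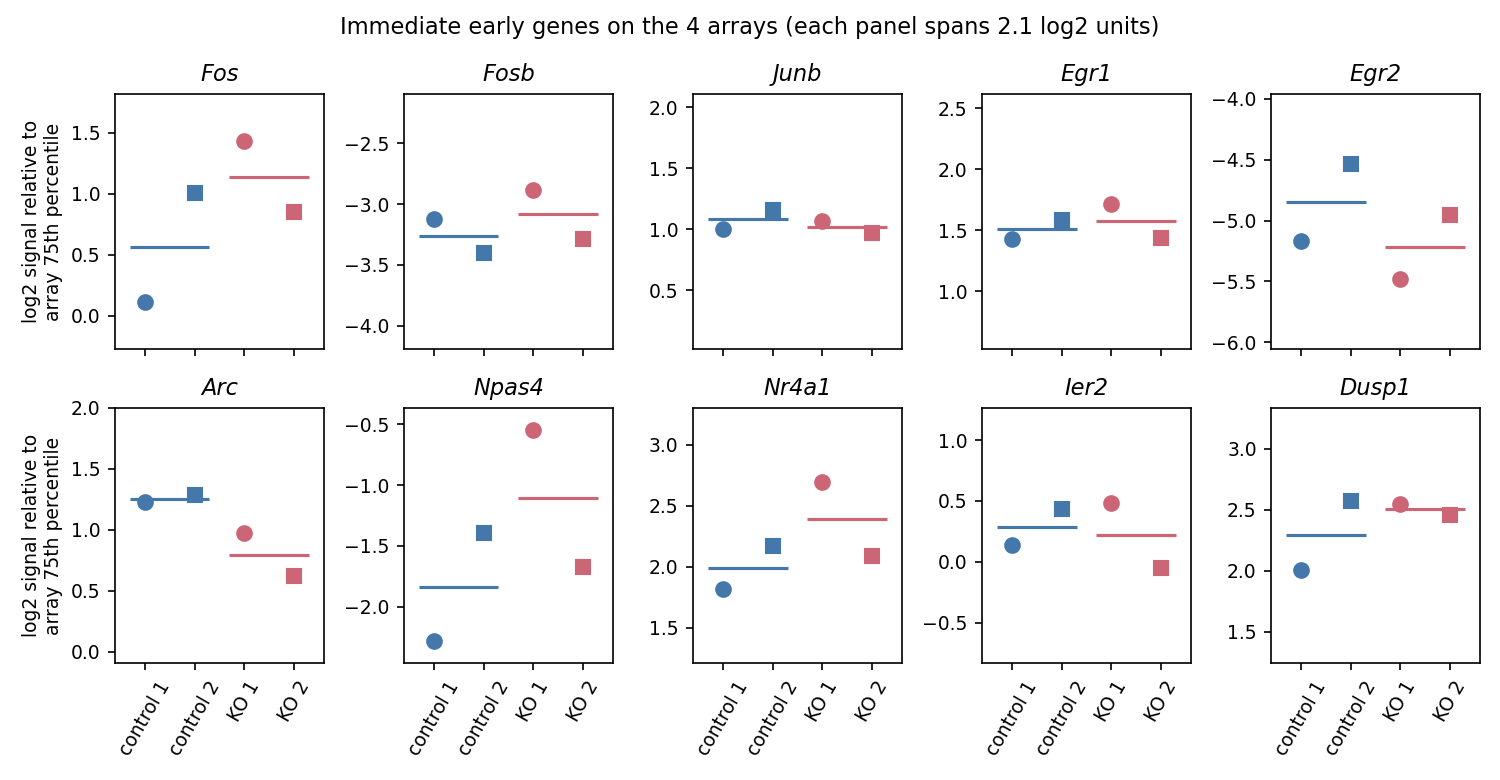
Log2 signal of each immediate early gene relative to the 75th percentile of the array (vertical axis, 2.1 log2 units in every panel) on the 4 arrays (horizontal axis). Circles are replicate 1 and squares replicate 2 of control (blue) and KO (red), and lines are group means of 2 arrays; only Arc has both KO values (0.97 and 0.62) below both control values (1.22 and 1.29).

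Arc was the member with the clearest group difference. It encodes a synaptic protein that promotes removal of AMPA-type glutamate receptors, and its messenger RNA is carried into dendrites. The log2 signal of its probe, A_51_P503494, was 1.22 and 1.29 for the control samples and 0.97 and 0.62 for the KO samples. Both KO arrays were below both controls. The controls differed by 0.063 and the KO samples by 0.35. The difference was −0.46 (SE 0.15; 95% interval −0.88 to −0.044; unadjusted p 0.0368, limma adjusted p 0.334), which put KO at 72.7% of control. The unadjusted p missed the threshold when control replicate 1 (0.0856), control replicate 2 (0.120) or KO replicate 2 (0.0972) was left out, and under scaling to spike-in probes (0.0702) or with no filter on dim probes (0.0582).

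Npas4, a transcription factor induced by neuronal calcium entry that sets inhibitory synapse number, had the widest range of the 10. Its log2 signal (A_55_P1975215) was −2.28 and −1.39 for the control samples and −0.55 and −1.67 for the KO samples. KO replicate 1 was highest and control replicate 1 lowest, and KO replicate 2 lay between the controls. The mean difference was 0.73 (SE 0.50; 95% interval −0.61 to 2.06; limma adjusted p 0.542), and it was 0.16 without KO replicate 1 and 1.29 without KO replicate 2. The highest and the lowest array differed 3.33-fold, a range larger than that of 98.4% of all genes tested.

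Fos, the founding partner of the AP-1 transcription factor, had the same order of arrays. Its log2 signal (A_55_P2910184) was 0.11 and 1.01 for the control samples and 1.43 and 0.85 for the KO samples, so that the lowest value was that of control replicate 1 and the other control lay between the knockouts. The mean difference was 0.58 (SE 0.37; 95% interval −0.43 to 1.59; limma adjusted p 0.524). The arrays spanned 2.50-fold, more than for 96.9% of genes. Without control replicate 2 the difference was 1.03 (unadjusted p 0.0225, adjusted p 0.374), and over all omissions of a single array it ran from 0.13 to 1.03.

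The other AP-1 genes varied less. Fosb, a paralogue of Fos that also gives the stable isoform ΔFosB, had a log2 signal (A_55_P2113051) of −3.12 and −3.40 for the control samples and −2.88 and −3.29 for the KO samples. Its groups overlapped, with a difference of 0.18 (SE 0.19; limma adjusted p 0.690). Junb, a Jun family partner of Fos, had the narrowest range of the 10: its log2 signal (A_51_P159194) was 1.01 and 1.15 for the control samples and 1.06 and 0.97 for the KO samples. The difference was −0.062 (SE 0.11; 95% interval −0.37 to 0.24; limma adjusted p 0.821), and it was 0.023 under spike-in scaling.

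Of the zinc finger factors, Egr1, which is also called Zif268 and is read out widely as a marker of active neurons, had a range of 1.22-fold over the arrays. Its log2 signal (A_51_P367866) was 1.43 and 1.59 for the control samples and 1.71 and 1.44 for the KO samples, with KO replicate 2 next to control replicate 1. The difference was 0.067 (SE 0.14; 95% interval −0.32 to 0.46; limma adjusted p 0.850). Egr2, which is known for its part in hindbrain patterning and Schwann cell myelination, was the dimmest member, with a processed signal between 17.0 and 34.1 intensity units. Its log2 signal (A_51_P173043) was −5.17 and −4.54 for the control samples and −5.48 and −4.96 for the KO samples. Egr2 went against the others within the KO group, being lower in KO replicate 1 than in KO replicate 2, and its difference was −0.37 (SE 0.29; limma adjusted p 0.594). It was −0.079 under normexp and ran from −0.68 to −0.053 with an array left out.

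Nr4a1, an orphan nuclear receptor also named Nur77, followed Npas4 and Fos. Its log2 signal (A_51_P239654) was 1.81 and 2.17 for the control samples and 2.70 and 2.09 for the KO samples. KO replicate 1 stood above the rest and control replicate 1 was lowest, while the other 2 arrays were close together. The difference was 0.40 (SE 0.26; 95% interval −0.29 to 1.09; limma adjusted p 0.523). It was 0.097 without KO replicate 1 and 0.70 without KO replicate 2 (limma unadjusted p 0.0409, adjusted p 0.414).

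Dusp1 and Ier2 complete the set. Dusp1 encodes a phosphatase that switches MAP kinases off, and its log2 signal (A_55_P2908530) was 2.003 and 2.57 for the control samples and 2.55 and 2.46 for the KO samples. Control replicate 1 was low, and the 3 other arrays lay within a narrow band. The difference was 0.21 (SE 0.22; limma adjusted p 0.672), and it was −0.070 without control replicate 1 and 0.50 without control replicate 2 (limma unadjusted p 0.0389, adjusted p 0.425). Ier2, a small nuclear protein of the early growth response, had a log2 signal (A_51_P481325) of 0.14 and 0.44 for the control samples and 0.48 and −0.051 for the KO samples. The KO samples, 0.54 apart, lay on either side of the controls, 0.30 apart, and the difference was −0.069 (SE 0.23; 95% interval −0.69 to 0.55; limma adjusted p 0.905), which became 0.016 under spike-in scaling.

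**Figure D2:**
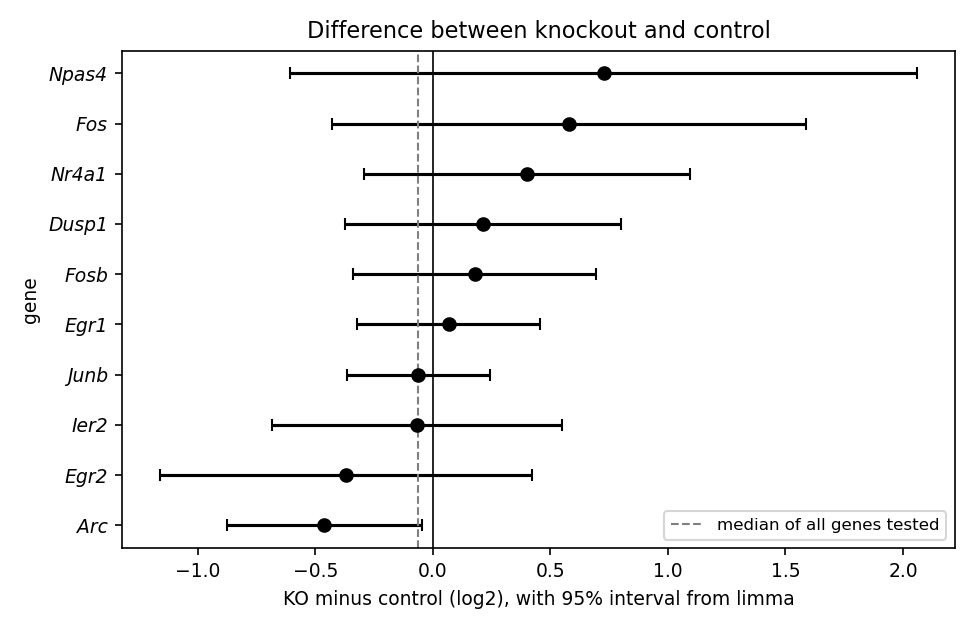
Difference between the mean of 2 KO and 2 control arrays for each gene on the log2 scale (points), with the 95% interval of the limma fit (bars); the dashed line is the median of all 16524 genes, −0.064. The interval of Arc alone leaves out 0, and those of Npas4 and Fos are the widest.

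The samples of a group differed from each other in these genes, and in a shared direction. KO replicate 1 was above KO replicate 2 in 9 of 10 members, all but Egr2, against 50.5% of genes. Control replicate 2 was above control replicate 1 in 9 of 10, all but Fosb, against 52.0% of genes. Both held for 8 members, against 21.9% of genes; the direction in which each pair is read was set after the values were seen. The median difference over the members was 0.38 for the KO pair and 0.33 for the control pair, against 0.0024 and 0.0081 over all genes.

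In size, the difference within at least 1 group exceeded the difference between the groups for 9 of the 10, the exception being Arc. The differences within both groups exceeded it for 7. The shares of all genes for which these hold were not taken, so the counts are not read as particular to these genes. The gap between the knockouts was 1.13 for Npas4, 0.61 for Nr4a1, 0.59 for Fos and 0.54 for Ier2. That between the controls was 0.89 for Npas4, 0.89 for Fos, 0.63 for Egr2 and 0.57 for Dusp1. The SD within groups was above the median of all genes (0.115) for 9 members, with Junb the exception. For repeated spots of a probe on an array, in the range of 500 to 5000 intensity units, the median SD was between 0.061 and 0.073. It was taken over 5 to 11 probes, none of them of a member. That error covers spots of an array and leaves out labelling and dissection, and it does not cover the lower range of Egr2, Fosb and, on all arrays but KO replicate 1, Npas4. KO replicate 1 held the highest value for 6 members, against 20.8% of genes, and control replicate 2 for 4, against 29.6%. The lowest value fell on control replicate 1 for 5 (18.8% of genes) and KO replicate 2 for 3 (33.7%). It fell on control replicate 2 for 1 (14.8%) and KO replicate 1 for 1 (32.8%).

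**Figure D3:**
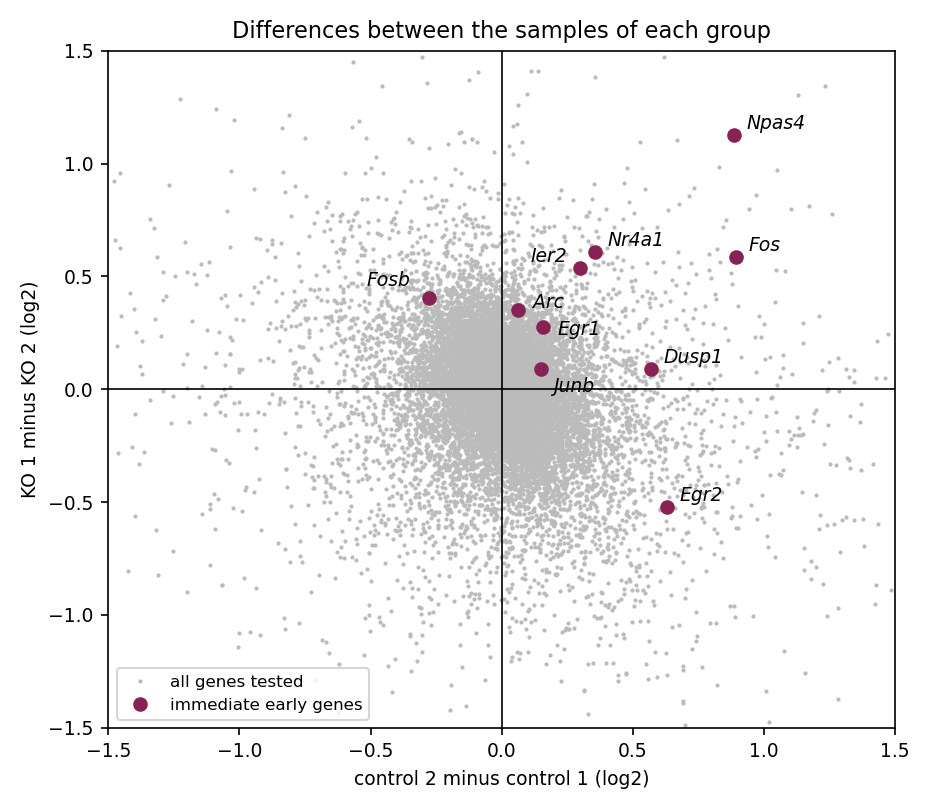
Difference between the 2 controls (horizontal axis, log2) against that between the 2 knockouts (vertical axis, log2) for the immediate early genes (large points) and all genes tested (small points; 217 genes lie outside the axes). Of the 10 members, 8 lie in the upper right quadrant, with Npas4 and Fos farthest out, while Egr2 lies below and Fosb to the left.

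Marker lists of tissue state and cell type were read in the same pairs. Heat shock genes, which rise with stress and handling, were higher in KO replicate 1 than in KO replicate 2 in 7 of 7, with a median of 0.37, but higher in control replicate 2 than in control replicate 1 in only 1 of 7 (median −0.10). Choroid plexus markers were higher in control replicate 2 in 11 of 11 (median 3.12) and in KO replicate 1 in 5 of 11 (median −0.058). In the KO pair the single markers ran from −0.63 to 3.21. Oligodendrocyte markers were lower in the samples in which most of the immediate early genes were higher: only 1 of 9 was higher in KO replicate 1 (median −0.29) and 1 of 9 in control replicate 2 (median −0.14), and their summed linear signals were 399 and 447 in those samples against 448 and 471 in the other KO and control samples. Markers of interneurons were higher in KO replicate 1 in 6 of 6 (median 0.22) and in control replicate 2 in 1 of 6 (median −0.073), and those of the meninges in 0 of 7 (median −0.36) and 5 of 7 (median 0.19). Microglia markers, like those of oligodendrocytes, were mostly lower in KO replicate 1 and control replicate 2. Of 8, 1 was higher in KO replicate 1 (median −0.21) and 3 in control replicate 2 (median −0.049). Granule cell markers differed little within either pair, with medians of 0.026 and 0.063. In bulk tissue, fewer cells of a type and less RNA per cell cannot be told apart. The part of these lists in the values of the immediate early genes was not tested.

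The wider activity response was read from 4 further lists. Of 20 other immediate early transcription factors, 19 were measured, with 2 higher and 1 lower at an unadjusted p under 0.05 (3.16% and 5.65% of all genes) and 0 past the adjusted threshold. Those were Nr4a2, a nuclear receptor of the Nr4a1 family, Atf3, a stress-responsive ATF/CREB family member, and Egr3. Nr4a2 had a log2 signal of 0.98 and 1.33 for the control samples and 1.93 and 2.21 for the KO samples, a difference of 0.92 (SE 0.18; limma adjusted p 0.273), and a second probe differed by 0.81. Atf3 was at −3.28 and −3.35 for the control samples and −1.87 and −2.63 for the KO samples (difference 1.07, SE 0.28, limma adjusted p 0.287; from 0.69 to 1.45 with an array left out). Egr3, a dim probe, differed by −0.29, and by −0.046 under normexp background correction. The median over this list was 0.0093, and KO replicate 1 was above KO replicate 2 in 10 of 19 and control replicate 2 above control replicate 1 in 9 of 19. Egr4, named after its values were seen, followed the order of Fos only in part: its log2 signal was 1.27 and 1.74 for the control samples and 1.93 and 1.01 for the KO samples.

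Among 24 other early effectors and feedback inhibitors, 3 were higher and 0 lower at an unadjusted p under 0.05 (3.16% and 5.65% of all genes), and 0 passed after adjustment. These were Spry4, an inhibitor of growth factor signalling (0.35), Plk2, a kinase of synaptic scaling (0.31), and Btg1, an antiproliferative factor (0.30). Spry4 has a dim probe, and its difference was 0.15 (limma adjusted p 0.529) under normexp. The list had a median of 0.025, with KO replicate 1 above KO replicate 2 in 13 of 24 and control replicate 2 above control replicate 1 in 9 of 24.

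Delayed activity-regulated genes of neurons had mostly means below control. Of 14 listed, 13 were measured; 10 had a mean below control and 3 above, with a median of −0.21, against 63.9% of all genes below. Pcsk1, a convertase that cleaves neuropeptide precursors, was the 1 gene at an unadjusted p under 0.05: its log2 signal was −1.53 and −1.65 for the control samples and −2.15 and −2.40 for the KO samples (difference −0.69, SE 0.13, limma adjusted p 0.273). Gadd45a differed by −0.23 and Arl4d by 0.22. KO replicate 1 was above KO replicate 2 in 9 of 13, with a median of 0.25, and control replicate 2 was above control replicate 1 in 4 of 13, with a median of −0.075.

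The upstream kinases, coactivators and DNA-binding factors varied least. Of 28 measured, 14 had a mean above and 14 below control, with a median of 0.0019 and a range from −0.29 to 0.22; 0 passed either threshold. The 3 with the smallest p were Rps6ka2, a kinase of the RSK family (−0.24), Ep300, a CREB coactivator (0.22), and Elk3, a partner of serum response factor (−0.29). A second probe of Ep300 was at −0.18, and the mean of its probes differed by 0.020. These counts rest on the brightest probe of each gene; other probes of Atf1 (0.34), Elk4 (0.34), Mrtfb (0.74) and Tcf4 (0.48), named after their values were seen, had an unadjusted p under 0.05. Their median SD within groups was 0.10, against 0.30 for the immediate early genes. Of the 7 heat shock genes, 3 had a mean above and 4 below control, with a median of −0.042 and 0 past either threshold; the smallest p belonged to Hsph1 (−0.27), Hsp90aa1 (−0.11) and Dnajb1 (−0.096). A second probe of Hsp90aa1 was at −0.32 (unadjusted p 0.0328, limma adjusted p 0.328), and the mean of its probes at −0.21.

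**Figure D4:**
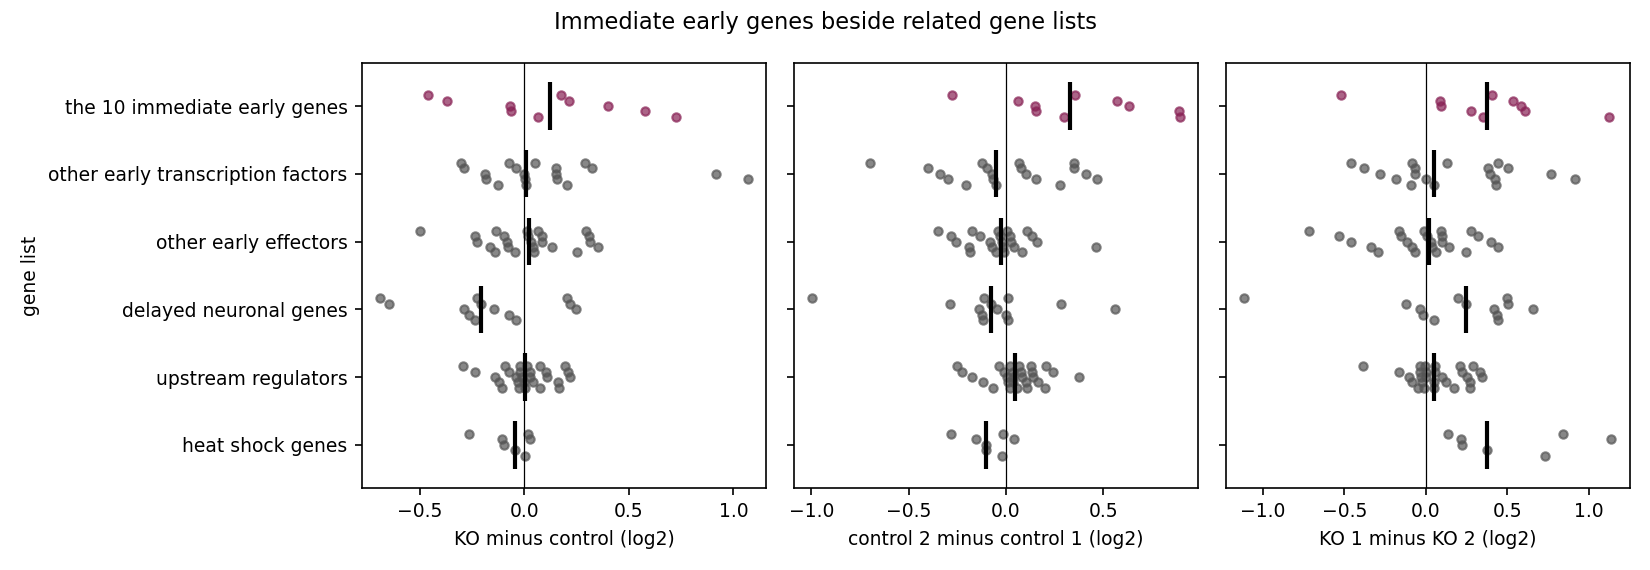
Log2 differences of single genes (points) and the median of each list (vertical bars) for KO minus control (left), control replicate 2 minus 1 (middle) and KO replicate 1 minus 2 (right). The immediate early genes have medians of 0.12, 0.33 and 0.38; the upstream regulators cluster near 0, and the heat shock genes lie to the right in the right panel only.

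The likeness of other genes to Fos was measured as the Euclidean distance between log2 values, centred per gene, over the 4 arrays. Among the members, Npas4 (rank 31 of 16523 genes), Nr4a1 (rank 34) and Dusp1 (rank 120) lay nearest, followed by Egr1 (851) and Ier2 (918). Junb (3455) and Fosb (4541) lay farther, and Arc (13809) and Egr2 (14325) were among the most distant. The 5 nearest genes of all were Senp1, Gm38660, Krt5, Ftmt and 1810064F22Rik, at distances from 0.13 to 0.18. All but Senp1 were dim, with log2 signals between −6.22 and −4.52. Senp1 dropped out when patch spots, those near raised local background, were omitted. With 4 arrays and this many genes, close matches are plentiful and the ranks are a description.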

How the data were processed

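Per the file headers, the authors scanned the arrays and extracted spots with Feature Extraction 12.1.1.1 of Agilent; the submitters' processing notes name 10.7.1.1. Cy3-labelled material from 150 ng of total RNA was hybridised to one-colour arrays, per the labels' protocols. The processed signal deposited by the authors is an intensity, background subtracted and detrended within the array. The deposited series table holds log2 values, shifted between arrays and centred per probe by steps not given in the sources used here; its differences between columns matched the scanner values within 0.01 for at least 99.9% of 23453 bright probes. Flags are those of the file headers.

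Spots of a probe were averaged as log2 processed signal, after removal of controls and flagged outliers, and the 75th percentile of the array was subtracted. Every member probe had 1 spot on each array, so each of its values is that of a single spot. A probe was kept if both arrays of either group were well above background (37516). Of 35886 probes with a RefSeq accession, 32994 (91.9%) were named through a RefSeq table of GRCm38.p6. The brightest kept probe stands for a gene. The group comparison used limma 3.58.1 (R 4.3.3) without covariates, and the number of arrays limits the precision. The fit was checked on simulated data. The changes planted there were larger than those of the immediate early genes, so the check does not cover changes of their size.

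The members and lists were chosen with earlier results of these data known. The text names all members, the 3 genes with the smallest p of each activity list and the 5 genes nearest to Fos, with Egr4 added after its values were seen. Marker lists of further cell types gave medians of KO minus control of −0.033 (granule cells), −0.062 (Purkinje cells), −0.14 (interneurons), −0.15 (astrocytes and Bergmann glia), −0.13 (oligodendrocytes), −0.23 (microglia), −0.11 (endothelium), −0.28 (meninges), −1.54 (choroid plexus) and −0.22 (red blood cells); 1 further list is not reported here.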

Additional observations from a re-analysis of the deposited data

How the results depend on the processing

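The alternatives run numbered 16. No member passed the adjusted threshold under any of them, with adjusted p between 0.207 and 0.996. The count of members at an unadjusted p under 0.05 was 1, Arc; it was 0 under spike-in scaling and with no filter on dim probes, 2 with the replicate block, and ran from 0 to 2 with an array left out. The block added Egr2 (unadjusted p 0.0301). The numbers are not stated to pair animals, and the deviations of same-numbered arrays correlated with r = 0.10 across genes; the block gives 6051 probes at an unadjusted p under 0.05 in place of 5265 and 0 after adjustment in both fits. The count of members with separate groups was 1; it was 2 under normexp, where Junb joined Arc, and ran from 3 to 8 in single-array omissions, which leave fewer values to overlap.

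The median of KO minus control over the members ran from −0.048 to 0.23 with an array left out and from 0.086 to 0.21 otherwise. The count of all probes past the adjusted threshold, 0, became 1 under each of 4 settings (quantile normalization, scaling to spike-in probes or to the median bright probe, and patch spots omitted), 2 under normexp and 4 under an intensity trend; it ran from 0 to 98 with an array left out, the lone array being assumed to vary like the other group.

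Arc kept its direction in all alternatives, from −0.64 to −0.29. With both KO arrays below both controls, leaving out an array could not turn it. Settings that change only the filter, the variances, the block or the averaging of probes leave its difference at −0.46. Directions turned under spike-in scaling for Junb (0.023) and Ier2 (0.016). With an array left out, values crossed 0 for Egr1 (−0.071 to 0.21, below 0 also at −0.011), Dusp1 (−0.070 to 0.50), Junb (−0.14 to 0.012), Ier2 (−0.34 to 0.20, above 0 also at 0.082), Fosb (−0.024 to 0.38), Gm38660 (−0.0092 to 0.87), Dnajb1 (−0.21 to 0.015) and Hsp90aa1 (−0.22 to 0.0027). The counts of 9 of 10 within each group were the same in all 11 alternatives with 4 arrays and no block. Settings that change only the probe filter, the variance model or the averaging of probes leave the members' values as they were. Those could not change the counts. Keeping outlier spots or omitting patch spots only shifted whole arrays, since no spot of a kept member probe was flagged or on a patch. Egr2 and Fosb are dim, and background limits their precision.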
